A study of Mus musculus with 2 samples.

Results

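Mxd4, Ypel3, Hist1h2bc, Mllt11, Ahnak2 and Vamp5 are 6 of the 14959 genes counted in 4156 single cells of 2 mouse melanoma lines, and they were picked by name because earlier results of the same cells had them higher outside the cell cycle. Their levels across the cycling classes, clusters, Kdm5b classes, lines and cell cycle scores are therefore a description of how they were chosen and carry no test. B16F0 is the parental line of a transplantable mouse melanoma, B16, and B16F10 a subclone that the labels call highly metastatic. Both were grown as cell lines and stand here as 1 library each of polyadenylated RNA, made with a droplet method that reads the 3' end of transcripts and counts each molecule once by its unique molecular identifier (UMI). No treatment or genetic change is named for either line, and each is a single line of its kind, so a difference between them is a difference between 2 libraries without a replicate check.

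A dividing cell copies its DNA in S phase, divides after G2 in M phase, and may leave this cycle for a resting state in which another set of genes is transcribed. In melanoma, cells that cycle slowly have long been studied as a reservoir that survives treatment, and high KDM5B, a histone demethylase, has been used to mark them. Members of the MXD family of transcription factors are known to replace MYC on the partner protein MAX and to repress MYC targets as cells stop dividing, which makes Mxd4 the gene of the 6 with the most direct textbook link to leaving the cycle.

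The B16F0 library held 2582 cells with a median of 35503.5 UMIs, and the B16F10 library held 1574 cells with a median of 34950.5. All 6 melanocyte markers, Mitf, Sox10, Pmel, Mlana, Tyrp1 and Dct, stood between 80.3 and 2898 CPM, counts of a gene per 1000000 counts, in both libraries. Of the markers of other cell types, 3 of 6 for fibroblasts, 2 of 5 for macrophages, 1 of 4 for endothelium and 0 of 4 for keratinocytes could be analysed here, and each of these stood at 3.61 CPM or less. The deposited class calls a cell cycling when its S score or its G2/M score is above 0, a rule that 0 cells broke. B16F0 had 1411 cycling and 1171 non-cycling cells, with median depths of 37356 and 33745 UMIs, and B16F10 had 1230 and 344, with 36316 and 30188.5. The class is a cut through a continuous score, and 10.1% of the B16F0 cells and 5.27% of the B16F10 cells had their higher score within 0.05 of 0. In B16F10 the median mitochondrial share was 7.73% in non-cycling cells against 6.42% in cycling cells, while in B16F0 it was 5.39% against 5.33%. No cell type in these cultures should lack the 6 genes, so the level that free RNA gives to a droplet could not be measured for them.

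In the GENCODE M21 annotation of build GRCm38, all 6 are protein-coding genes. Mxd4 (ENSMUSG00000037235.13) lies at chr5:34173883-34187720 on the minus strand, Ypel3 (ENSMUSG00000042675.15) at chr7:126776955-126780514 on the plus strand, and Hist1h2bc (ENSMUSG00000018102.5) at chr13:23684199-23692908 on the plus strand. Mllt11 (ENSMUSG00000053192.9) lies at chr3:95219135-95232171, Ahnak2 (ENSMUSG00000072812.4) at chr12:112772194-112802657, and Vamp5 (ENSMUSG00000073002.9) at chr6:72368794-72380468, all on the minus strand. Mxd4 overlaps the antisense gene Gm42846, and Mllt11 overlaps Gm16740 and Cdc42se1, each on the opposite strand. The sources used here do not say whether the counting used strand, so reads of these overlaps cannot be assigned beyond doubt. Hist1h2bc is a member of a family of near-identical histone genes. In the last 500 bases of its transcript, 8 of 451 words of 50 bases (1.77%) also occur in transcripts of other genes. None of those genes is named as a histone. For the transcripts of the other 5 genes the number of such words was 0. Bases before the last 500 were not compared.

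Mxd4, Ypel3 and Vamp5 differed most between the lines in their ratio of non-cycling over cycling cells, and their promoters are shown because they are also the ones that held a searched motif. RefSeq promoters of GRCm38.p6 were matched for 5 of the 6 genes, Hist1h2bc being the exception. The 250 bases before the annotated start are printed 5′ to 3′ along the gene's strand, with capitals for the motifs found: the Mxd4 window is chr5:34187711-34187960 (minus strand), the Ypel3 window chr7:126776713-126776962 (plus strand) and the Vamp5 window chr6:72380469-72380718 (minus strand).
Mxd4: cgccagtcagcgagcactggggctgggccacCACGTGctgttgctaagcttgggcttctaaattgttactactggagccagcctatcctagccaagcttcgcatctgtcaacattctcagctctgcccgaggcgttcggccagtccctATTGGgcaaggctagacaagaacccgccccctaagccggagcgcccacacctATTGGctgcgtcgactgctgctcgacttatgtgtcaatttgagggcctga
Ypel3: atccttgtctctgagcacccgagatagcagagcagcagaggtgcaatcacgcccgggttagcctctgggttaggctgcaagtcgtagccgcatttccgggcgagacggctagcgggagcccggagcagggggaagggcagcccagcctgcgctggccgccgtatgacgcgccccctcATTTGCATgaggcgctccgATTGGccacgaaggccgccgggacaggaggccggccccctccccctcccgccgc
Vamp5: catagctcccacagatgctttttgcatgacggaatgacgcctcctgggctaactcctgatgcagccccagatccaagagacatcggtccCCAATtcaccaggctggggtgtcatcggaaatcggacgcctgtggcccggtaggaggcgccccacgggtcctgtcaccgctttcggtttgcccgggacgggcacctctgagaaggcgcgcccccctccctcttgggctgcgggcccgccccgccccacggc
The Mxd4 window held 1 E-box, CACGTG, the site that MYC and MXD proteins bind with MAX, beginning 219 bases before the start, and 2 CCAAT boxes read on the opposite strand, at 102 and 50 bases before it. In the Ypel3 window an octamer, ATTTGCAT, an element known from histone gene promoters, began 73 bases before the start and a reverse CCAAT box 54 bases before it. Vamp5 had 1 CCAAT box, 161 bases before its start. On both strands of 32851 mouse promoters of the same length, CACGTG occurred in 6.02%, CCAAT in 33.8% and ATTTGCAT in 1.60%. The windows of Mllt11 (chr3:95228678-95228927) and Ahnak2 (chr12:112795743-112795992), both on the minus strand, held none of the motifs searched. Both windows lie inside the GENCODE span of their gene given above, so the bases before the upstream end of that span were not searched. None of the 5 windows held any of the other motifs searched: the TATA box TATAAA (in 12.4% of promoters), the cell cycle element TTTGAA (15.99%), the E2F sites TTCCCGC (3.82%) and, in another form, TTGGCGC (1.97%), the forkhead site GTAAACA (3.17%) or the cyclic AMP element TGACGTCA (1.55%). A match of letters is a description of the window and not a bound site.

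Counts of all cells in a class were summed and scaled to CPM, and a gene was called different when the levels differed at least 1.5-fold and the higher class reached 20 CPM. Intervals are exact at 95% and cover counting error only, since cells of 1 library are not replicates. By that size, 4 of the 6 genes were higher in non-cycling cells of B16F0, where 1.03% of 5048 genes tested were, and 6 of 6 were higher in B16F10, where 3.43% of 5393 were. The rule that chose the 6 used this contrast, so nothing is read from those counts. The median log2 ratio of the 6 genes was 0.87 in B16F0 and 1.23 in B16F10, against −0.06 and −0.11 over all genes tested. In both lines together, 38 of 4839 genes tested passed the same size in non-cycling cells.

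Mxd4, the MAX-binding repressor, stood in B16F0 at 92.5 CPM in non-cycling and 41.3 CPM in cycling cells, and in B16F10 at 60.9 and 13.1 CPM. Its log2 ratio of non-cycling over cycling was 1.16 (1.09 to 1.24) in B16F0 and 2.22 (2.06 to 2.38) in B16F10. The second is the highest but 1 of all genes tested in that line. Its cycling level in B16F10 was the low point: once each cell was thinned to 23173 UMIs, 20.8% of cycling B16F10 cells had an Mxd4 UMI, against 57.5% of non-cycling ones, and 56.0% and 79.5% in B16F0. Without thinning the 4 shares were 27.4%, 66.3%, 67.1% and 85.3%.

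Ypel3 belongs to the small zinc-binding YPEL family and is known as a gene that p53 induces and that halts growth. Non-cycling and cycling cells had 68.3 and 46.8 CPM in B16F0, and 73.3 and 30.2 CPM in B16F10. The intervals of the 2 non-cycling pools overlapped and those of the cycling pools did not. The log2 ratio was 0.55 (0.47 to 0.62) in B16F0, which is 1.46-fold and short of the size for a call, though 0.60 and past it with mitochondrial and ribosomal protein genes left out of the total and 0.59 with the mean of per-cell CPM, and 1.28 (1.15 to 1.41) in B16F10. After thinning, 73.7% of non-cycling and 61.4% of cycling B16F0 cells had a UMI, and 72.5% and 45.3% of B16F10 cells.

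Hist1h2bc encodes a core histone of the H2B type. Most histone messages are made in S phase and end in a stem-loop without a poly(A) tail, and a few histone genes are known to give polyadenylated messages in cells that do not divide. Its level was 79.5 CPM in non-cycling and 22.5 CPM in cycling B16F0 cells, a log2 ratio of 1.82 (1.72 to 1.92) that ranked 1 of 5048. In B16F10 the levels were 66.9 and 16.9 CPM, and the ratio was 1.99 (1.84 to 2.13). Its UMIs were gathered in few cells. Among 993 thinned non-cycling B16F0 cells its mean was 1.76 UMIs, its median 1 and its highest count 32, and the top 10% of cells held 48.4% of its UMIs. The same share was 29.5% for Mllt11 and 30.6% for Mxd4. In non-cycling B16F10 cells the top 10% held 49.5% of the Hist1h2bc UMIs and 39.4% of those of Mxd4, while in cycling B16F10 cells the order was turned, with 58.01% for Hist1h2bc and 65.0% for Mxd4. The thinned share of cells with a UMI was 58.1% in non-cycling and 25.5% in cycling B16F0 cells, and 54.0% and 26.5% in B16F10. Among cells of 25000 to 45000 UMIs alone its B16F0 ratio was 1.37, the lowest of 9 alternatives.

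Mllt11 encodes a small protein first known as a fusion partner of MLL in leukaemia. It stood at 84.2 CPM in non-cycling and 48.4 CPM in cycling B16F0 cells, and at 65.3 and 33.5 CPM in B16F10. These are log2 ratios of 0.80 (0.73 to 0.87) and 0.96 (0.83 to 1.09), among the closest between the lines. A UMI was seen in 79.4% and 61.9% of thinned B16F0 cells and in 68.6% and 48.5% of B16F10 cells.

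Ahnak2, a very large scaffold protein related to AHNAK, was the exception among the 6 in that its level was higher in B16F10 in both classes. B16F0 had 83.5 CPM in non-cycling and 43.7 CPM in cycling cells, and B16F10 had 132 and 60.5 CPM. The log2 ratios were 0.94 (0.86 to 1.01) and 1.12 (1.03 to 1.22). Thinned shares were 72.7% and 55.6% in B16F0, and 84.7% and 65.3% in B16F10.

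Vamp5 encodes a membrane-anchored SNARE-family protein, first described in developing muscle. Non-cycling cells had 272 CPM and cycling cells 188 CPM in B16F0, a log2 ratio of 0.53 (0.49 to 0.57) or 1.44-fold, just past the size for a call at 0.59 with that reduced total. B16F10 cells had 229 and 101 CPM, a ratio of 1.18 (1.11 to 1.25). A UMI was found in 97.7% of thinned non-cycling and 92.9% of cycling B16F0 cells, and in 93.7% and 78.8% in B16F10.

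**Figure D1:**
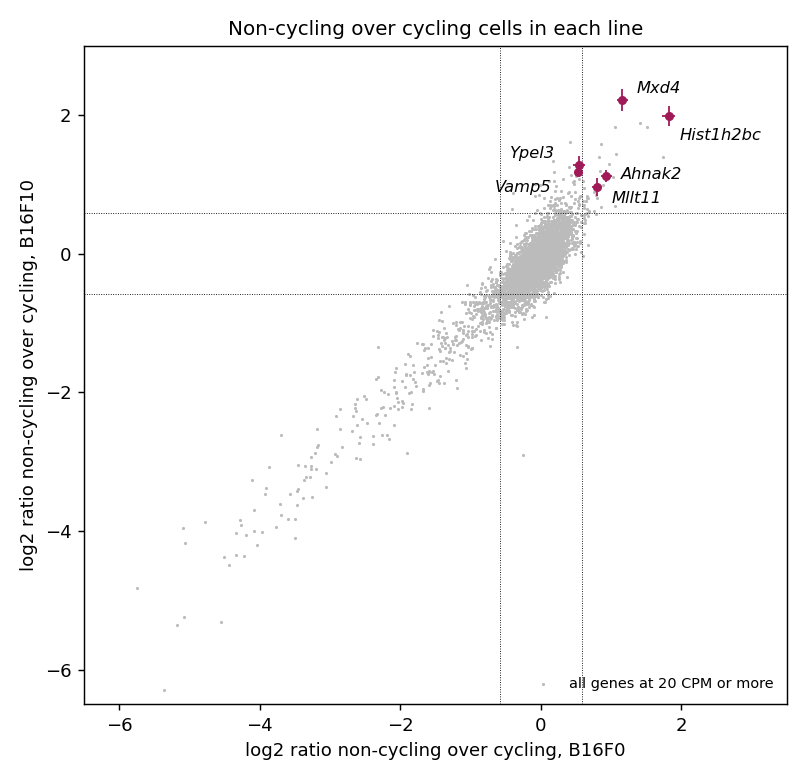
Each point is a gene whose higher class reached 20 CPM in both lines, by its log2 ratio of non-cycling over cycling cells in B16F0 (x axis) and B16F10 (y axis). Named points are the 6 genes with 95% intervals, and dotted lines mark 1.5-fold; Ypel3 at 0.55 and Vamp5 at 0.53 lie just inside the B16F0 line, and Mxd4 and Hist1h2bc lie farthest from 0.

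The ratio was larger in B16F10 for Mxd4 by 1.06 (0.88 to 1.23), for Ypel3 by 0.73 (0.59 to 0.88) and for Vamp5 by 0.65 (0.57 to 0.73) on the log2 scale. For Ahnak2 the gap was 0.19 (0.07 to 0.31), for Mllt11 0.16 (0.01 to 0.31), and for Hist1h2bc 0.17 (−0.01 to 0.34), an interval that includes 0. The first 3 genes differed between the lines mainly through their cycling cells. In cycling cells Mxd4 was lower in B16F10 by −1.66 (−1.79 to −1.53), Vamp5 by −0.90 (−0.95 to −0.85) and Ypel3 by −0.63 (−0.73 to −0.54), so 3 of 6 genes were called lower, where 5.99% of 5379 genes were lower and 8.07% higher. Mllt11 at −0.53, Hist1h2bc at −0.41 and Ahnak2 at 0.47 did not reach 1.5-fold there, but Mllt11 did with TMM factors (−0.59), with DESeq2 size factors (−0.61) and in cells of at most 8% mitochondrial UMIs (−0.64).

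In non-cycling cells the lines were closer. Mxd4 was called lower in B16F10 at −0.60 (−0.72 to −0.49), where 7.32% of 5094 genes were lower, and Ahnak2 higher at 0.66 (0.57 to 0.75), where 10.2% were. Both lay near the size for a call and each lost it under some alternatives: Ahnak2 at 0.56 with TMM factors, 0.55 with DESeq2 size factors and 0.55 unscaled, and Mxd4 at −0.56 with mitochondrial and ribosomal protein genes left out of the total and −0.54 in cells of at most 8% mitochondrial UMIs. Ypel3 differed by 0.10 (−0.01 to 0.21), and its sign turned under some scalings, from −0.01 to 0.14. Hist1h2bc at −0.25, Vamp5 at −0.25 and Mllt11 at −0.37 were lower by less than 1.5-fold. The Mxd4 difference depended on which non-cycling cells were set side by side. B16F0 non-cycling cells fell in trajectory states 5, 6 and 7 (180, 557 and 434 cells), and those of B16F10 in states 1 and 7 (41 and 303). Within state 7, Mxd4 stood at 64.7 CPM in B16F10 and 64.2 CPM in B16F0, a log2 ratio of 0.01 (−0.14 to 0.16), while B16F0 cells of state 6 had 119 CPM. Vamp5, at 247 and 253 CPM, also stood close in state 7, with a ratio of −0.03 (−0.11 to 0.04). Ahnak2 was 132 against 92.1 CPM there (0.53, 0.41 to 0.64), and Hist1h2bc 71.7 against 97.9 CPM (−0.45, −0.58 to −0.32). Within state 7 none of the 6 genes reached 1.5-fold, where 7.18% of 5097 genes were higher and 7.87% lower in B16F10. Within cluster C3, which both lines also share, 1 of 6 was called, Hist1h2bc at −0.60 (−0.73 to −0.47), where 9.35% of 5093 genes were lower and 8.76% higher. Mxd4 was still lower in B16F10 within C3, at 59.6 against 71.7 CPM, a ratio of −0.27 (−0.41 to −0.12) short of 1.5-fold. These comparisons within a state and a cluster were chosen after the values were seen.

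Seen cell by cell, more of the 6 genes were found per cell outside the cycle, which follows from how they were chosen. Whether they occurred together more often than their single shares give was not tested. In B16F0, 57.1% (54.0 to 60.2) of 993 thinned non-cycling cells had UMIs of at least 5 of the 6 genes, against 21.5% (19.2 to 23.9) of 1201 cycling cells. In B16F10 the shares were 45.3% (39.4 to 51.3) of 287 cells and 9.57% (7.91 to 11.4) of 1129. The mean number of genes seen was 4.61 and 3.53 in B16F0 and 4.31 and 2.85 in B16F10. All 6 were seen in 20.9% of non-cycling B16F0 cells and 12.5% of B16F10 cells. In pooled counts, fewer cells with a transcript and less RNA per cell cannot be told apart, and these shares were lower together with the levels.

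**Figure D2:**
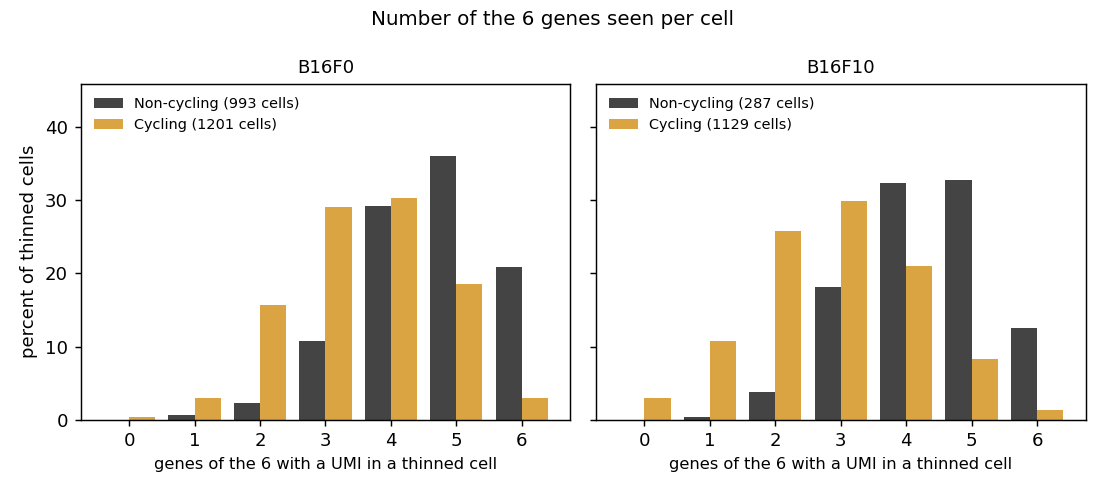
Bars give the percent of cells (y axis), each thinned to 23173 UMIs, in which a UMI of 0 to 6 of the genes was seen (x axis), for non-cycling and cycling cells of each line. The non-cycling bars peak at 5 genes in B16F0, while in B16F10 those at 4 and 5 genes are nearly level, at 32.4% and 32.8%. The cycling bars are highest at 4 genes in B16F0, at 30.3% against 29.1% at 3, and at 3 genes in B16F10.

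Splitting the cycling cells by the sign of each score showed where in the cycle each gene was low. In order, for cells with neither score above 0, only the S score, both, and only the G2/M score, Mxd4 had 92.5, 61.3, 32.1 and 27.9 CPM in B16F0 and 60.9, 22.1, 8.69 and 11.5 CPM in B16F10. Mllt11 went from 84.2 and 73.2 to 37.0 and 31.4 CPM, and in B16F10 from 65.3 and 51.1 to 27.0 and 25.6 CPM. Vamp5 went from 272 and 252 to 152 and 157 CPM, and in B16F10 from 229 and 132 to 84.4 and 99.5 CPM. These 3 genes were thus higher in cells with only the S score above 0 than in cells with only the G2/M score above 0, by log2 ratios (G2/M over S) of −1.14, −1.22 and −0.68 in B16F0 and −0.94, −0.996 and −0.41 in B16F10.

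Ypel3 was nearly level between those 2 groups, at 49.2 and 47.9 CPM in B16F0 and 34.4 and 39.3 CPM in B16F10. Its ratios were −0.04 (−0.19 to 0.11) and 0.19 (−0.01 to 0.39). Hist1h2bc took a different course in each line. In B16F0 it was at 18.0 CPM with the S score alone and 10.8 CPM with both, and stood at 47.2 CPM with the G2/M score alone, a ratio of 1.39 (1.20 to 1.59). In B16F10 the corresponding levels were 20.1, 14.3 and 18.6 CPM, and the ratio was −0.11 (−0.40 to 0.16). Ahnak2 was at 43.2, 36.1 and 56.0 CPM in B16F0, a ratio of 0.37 (0.23 to 0.52), and at 81.1, 49.4 and 59.7 CPM in B16F10, a ratio of −0.44 (−0.59 to −0.30), neither of which reached 1.5-fold. Over G2/M against S, 1 of 6 genes was called higher and 3 lower in B16F0, where 4.34% and 4.30% of 5189 genes were. In B16F10, 2 of 6 were lower, where 3.13% of 5437 were, and none was higher, where 3.57% were.

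Against cells with neither score above 0, cells with only the S score above 0 had 3 of 6 genes called lower in B16F0 (0.836% of 5024 genes, with 8.26% higher) and 5 of 6 in B16F10 (2.48% of 5367, with 11.6% higher). Mllt11 in both lines, and Ypel3 and Vamp5 in B16F0, were the ones that did not pass. Cells with only the G2/M score above 0 had 4 of 6 called lower in B16F0 (2.17% of 5069, with 8.98% higher) and 6 of 6 in B16F10 (3.12% of 5381, with 10.5% higher). Cells with both scores above 0 were the deepest, with median UMI counts of 40499.5 and 38588, against 33745 and 30188.5 in cells with neither, and the part of depth in these levels was not tested.

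**Figure D3:**
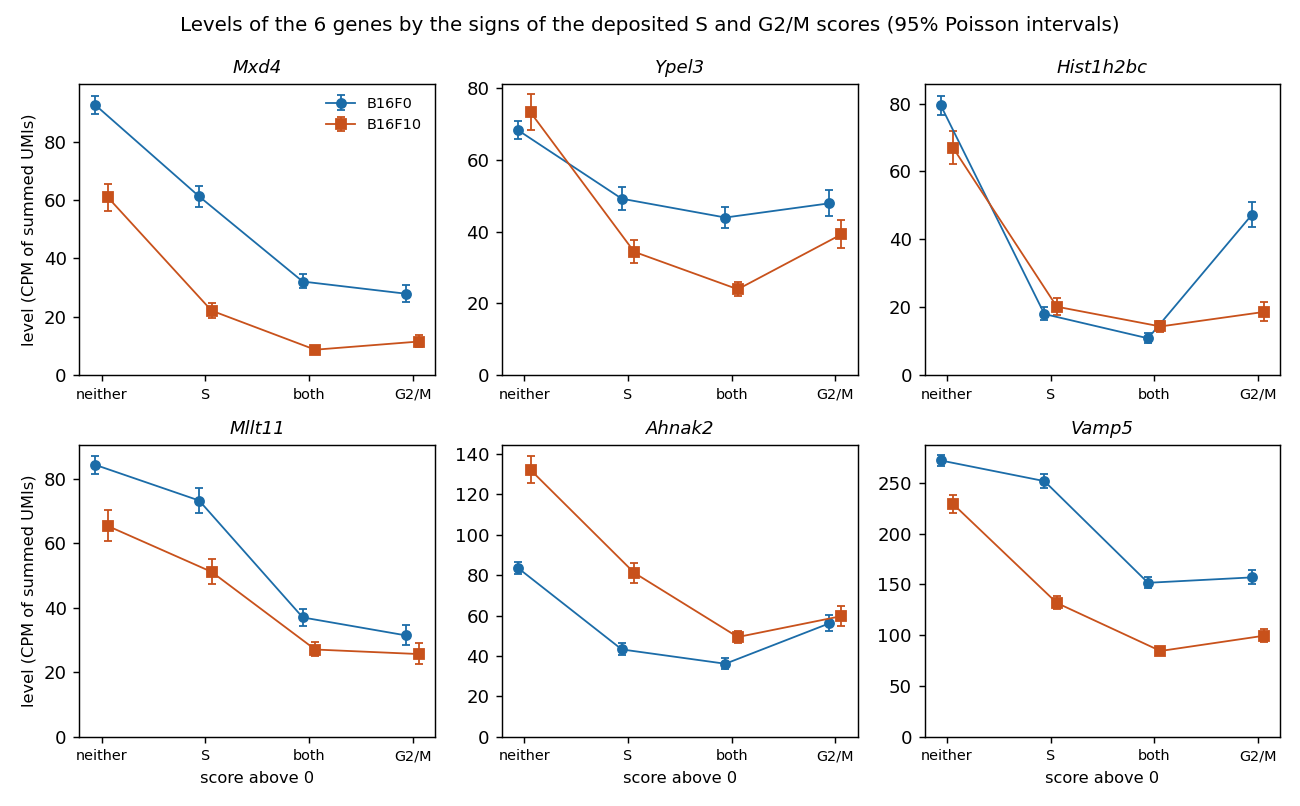
Level in CPM (y axis, from 0) of each gene in cells with neither, the S score, both, or the G2/M score above 0 (x axis), for B16F0 and B16F10, with 95% Poisson intervals. Hist1h2bc returns to 47.2 CPM in B16F0 cells with the G2/M score alone and stays at 18.6 CPM in B16F10, and the Ahnak2 lines come together at 56.0 and 59.7 CPM in that group.

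Each line was also cut into 5 groups of equal size by each score. Along the S score in B16F0, Hist1h2bc stepped down through 112, 66.9, 36.9, 15.8 and 12.4 CPM, the widest range of the 6 genes. Mllt11 had 87.6, 71.2, 56.6, 50.3 and 57.3 CPM. Along the G2/M score in B16F0, Mllt11 was lower at every step, through 97.9, 82.3, 70.4, 43.9 and 30.2 CPM, whereas Ahnak2 stayed at 72.3, 74.4 and 74.3 CPM before 42.3 and 44.7 CPM. In B16F10 the main drop came between the first and the second group of the S score, where Mxd4 went from 57.5 to 18.7 CPM and Vamp5 from 224 to 113 CPM. Between these groups the median S score went from −0.18 to −0.05, and the median G2/M score from −0.22 to 0.23. The drop is therefore not one along the S score alone, and the part of each score was not tested.

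**Figure D4:**
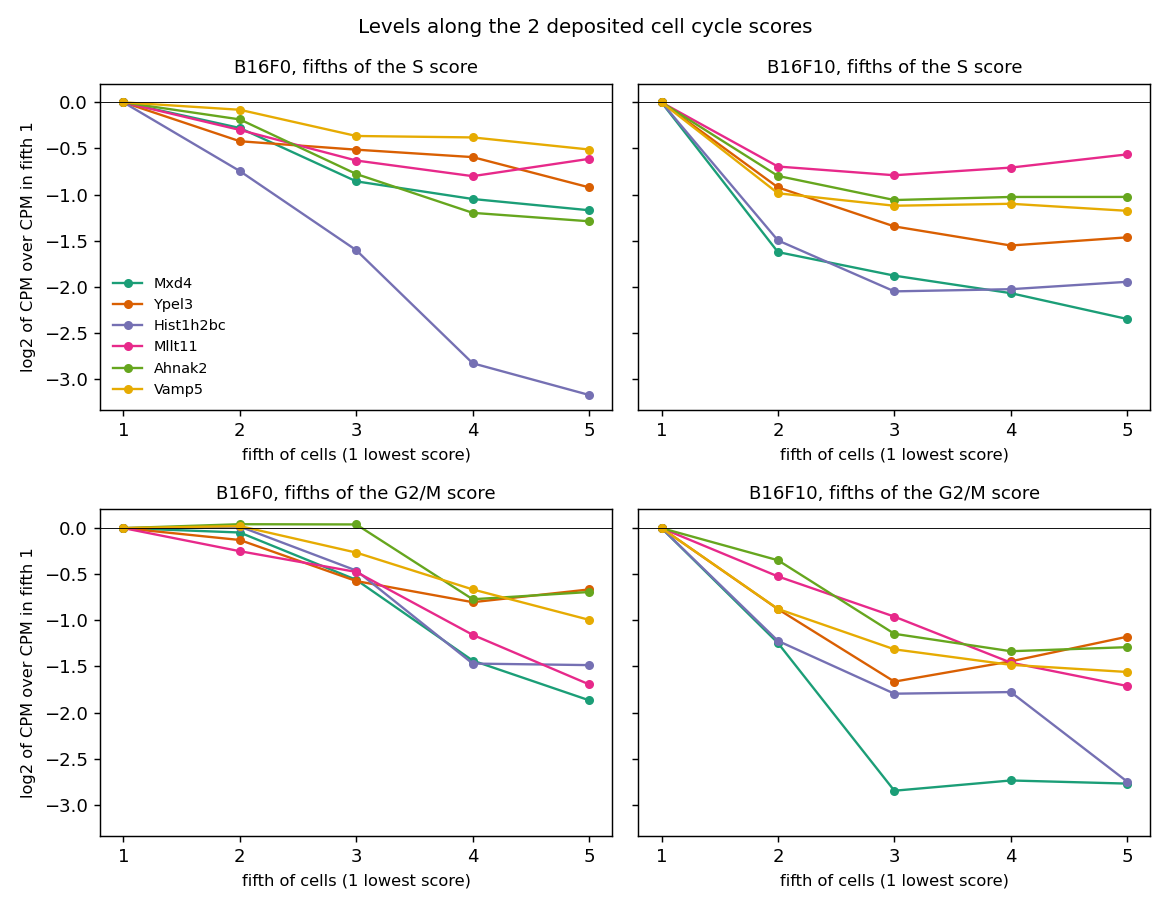
Log2 of the CPM over the CPM of the lowest group (y axis) in 5 groups of cells of equal size by S score (top) or G2/M score (bottom) (x axis, 1 lowest), for B16F0 (left) and B16F10 (right), 1 line per gene. Hist1h2bc has the steepest slope over the S score in B16F0, from 112 to 12.4 CPM, and Mxd4 levels off at 8.91 CPM from group 3 of the G2/M score in B16F10.

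Among cells called non-cycling the 6 genes followed the 2 scores in different ways, described by tertiles from the lowest to the highest score. Ypel3 was lower at each step of both scores in both lines, through 81.2, 65.5 and 58.5 CPM in B16F0 and 88.1, 77.0 and 55.4 CPM in B16F10 by the S score, and through 77.7, 73.7 and 52.6 CPM and 93.9, 73.5 and 52.0 CPM by the G2/M score. Hist1h2bc went down with the S score, through 112, 80.2 and 47.2 CPM in B16F0 and 89.2, 67.8 and 44.7 CPM in B16F10. By the G2/M score it had 72.6, 86.3 and 79.3 CPM in B16F0, with no such course, and 74.6, 66.4 and 59.6 CPM in B16F10. Mllt11 went down with the G2/M score, through 100.1, 80.2 and 71.9 CPM and 84.2, 61.8 and 49.6 CPM, while by the S score its middle tertile was the lowest, at 91.9, 77.9 and 83.1 CPM and 75.5, 56.0 and 65.0 CPM. Mxd4 stood lowest in the highest tertile of either score, with 100.1, 93.3 and 84.5 CPM and 62.98, 66.5 and 53.3 CPM by the S score and 98.6, 101 and 76.8 CPM and 73.8, 69.7 and 39.1 CPM by the G2/M score. Vamp5 was level over the S score in B16F0, at 273, 276 and 267 CPM, and went through 274, 237 and 177 CPM in B16F10. By the G2/M score it had 288, 294 and 232 CPM and 301, 246 and 139 CPM. Ahnak2 had 94.4, 90.6 and 65.97 CPM and 137, 141 and 119 CPM by the S score, and by the G2/M score 77.2, 76.8 and 97.3 CPM in B16F0, where it was highest in the highest tertile, and 135, 130 and 131 CPM in B16F10. Across single thinned non-cycling cells the Spearman rho of any of the genes with either score lay between −0.28 and 0.14, values that carry no test. The value of −0.28 was that of Vamp5 with the G2/M score in B16F10. Vamp5 was not sparse there, with a mean of 4.88 UMIs per cell and a UMI in 93.7% of cells. The other genes had fewer UMIs per cell, and the part of sparse counts in their values was not tested.

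Across the deposited clusters of B16F0, Mxd4 stood at 101 CPM in C1 (816 cells), 43.4 in C2 (644 cells), 69.4 in C3 (640 cells) and 23.9 in C4 (469 cells). C1 and C3 hold nearly all non-cycling cells of that line. Hist1h2bc had its highest level in C3, at 97.2 CPM, with 49.7 in C1, 25.4 in C4 and 13.0 in C2, and Ahnak2 followed the same order in C3 and C1, at 90.7 and 66.3 CPM. Vamp5, at 282, 178, 263 and 150 CPM in C1 to C4, and Ypel3, at 65.7, 44.2, 67.1 and 43.6 CPM, separated C1 and C3 from C2 and C4 and little else. In B16F10 the levels in C3 (306 cells), C4 (212 cells) and C5 (1045 cells) were 56.5, 17.3 and 14.3 CPM for Mxd4 and 67.6, 44.4 and 31.9 CPM for Mllt11. Hist1h2bc reached 63.4, 9.06 and 19.9 CPM in the same clusters, so C4 was its lowest point and C5 that of Mxd4 and Mllt11.

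Among non-cycling cells alone, C3 (569 cells) against C1 (597 cells) of B16F0 set Mxd4 and Hist1h2bc apart in opposite ways. Mxd4 was at 71.7 against 112.8 CPM, a log2 ratio of −0.65 (−0.75 to −0.56), and Hist1h2bc at 102 against 57.7 CPM, a ratio of 0.83 (0.72 to 0.93). So 1 of 6 was called lower and 1 higher, where 2.84% and 5.23% of 4819 genes were. Ahnak2 differed by 0.32 (0.22 to 0.42), while Ypel3 at 0.00, Mllt11 at 0.03 and Vamp5 at −0.10 differed little. In B16F10 the 59 non-cycling cells of C5 had 110.1 CPM of Vamp5 against 249.97 CPM in the 280 of C3, a ratio of −1.18 (−1.39 to −0.98), and 41.7 against 79.8 CPM of Ypel3, a ratio of −0.94 (−1.29 to −0.60). Those were the 2 of 6 called lower, where 4.52% of 5263 genes were, and 0 of 6 were called higher, where 12.5% were. The C5 cells also had more cell cycle RNA: 14 of 19 tested S phase genes and 17 of 22 tested G2 and M phase genes were higher than in C3, and the median G2/M score was −0.11 against −0.24. Its part in these ratios was not tested. Ahnak2, at 132.5 and 131.9 CPM, and Mxd4, at 58.4 and 59.6 CPM, stood level between these clusters.

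Kdm5b itself had 16.4 CPM in non-cycling and 4.30 CPM in cycling B16F0 cells, and 34.8 and 9.26 CPM in B16F10. Within non-cycling cells, 0 of 6 genes reached 1.5-fold between Kdm5b-high cells (91 in B16F0, 77 in B16F10) and Kdm5b-low cells (1080 and 267). The background was 0.620% higher and 0.372% lower of 4837 genes in B16F0, and 1.10% and 0.492% of 5077 in B16F10. Hist1h2bc came nearest in B16F0, at 115 against 76.8 CPM, a log2 ratio of 0.58 (0.41 to 0.75), and was at 74.8 against 64.7 CPM in B16F10, a ratio of 0.21 (−0.04 to 0.45) that turned to −0.10 once the deepest 5% of cells were left out. Ahnak2 was at 101 against 141 CPM in Kdm5b-high B16F10 cells, a ratio of −0.48 (−0.68 to −0.28), and at 89.6 against 83.0 CPM in B16F0, a ratio of 0.11 (−0.08 to 0.29). For Vamp5 the ratio was −0.31 in B16F0 and −0.28 in B16F10, where it turned to 0.05 in cells of at most 8% mitochondrial UMIs. For Mxd4 (−0.26 and 0.06), Ypel3 (0.19 and −0.11) and Mllt11 (−0.11 and −0.07) the ratios were small in both lines, and the sign of these 3 in B16F10, like that of Ahnak2 in B16F0, also turned under some alternatives. In cycling cells the Kdm5b-high class held only 20 and 44 cells, where Mxd4 had 17.2 and 11.2 CPM, below its 78.1 and 62.9 CPM in non-cycling Kdm5b-high cells.

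The deposited table also gives each cell a score for targets of MITF, the master regulator of melanocytes, which the choice of genes did not name. The sources used here do not name the genes behind that score. Among non-cycling cells, the highest against the lowest tertile of this score divided the 6 genes into 3 kinds. Ahnak2 was higher with a higher score, through 65.6, 79.5 and 104 CPM in B16F0 and 101, 128 and 171 CPM in B16F10, with log2 ratios of 0.67 (0.55 to 0.79) and 0.76 (0.57 to 0.94). Mllt11 went the other way, through 102, 86.7 and 64.8 CPM and 81.0, 62.0 and 51.2 CPM, with ratios of −0.66 (−0.78 to −0.53) and −0.66 (−0.93 to −0.39). Hist1h2bc was higher by 0.79 (0.66 to 0.91) in B16F0 and by 0.51 (0.25 to 0.77) in B16F10, and Vamp5 by 0.48 and 0.43.

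Mxd4, at −0.15 and −0.05, and Ypel3, at 0.09 and 0.07, differed little between the highest and the lowest tertile. That ratio leaves out the middle tertile, where Mxd4 was lower in B16F10. From the lowest to the highest tertile it stood there at 69.4, 46.02 and 67.1 CPM, and the middle interval did not overlap the others. For the highest over the lowest tertile in B16F0, 2 of 6 genes were called higher and 1 lower, where 3.90% and 3.22% of 4845 genes were. In B16F10, 1 was higher and 1 lower, where 3.24% and 3.35% of 5128 were. In B16F10 the median mitochondrial share of the 3 tertiles was 7.03%, 7.69% and 8.42%, and its part in these ratios was not tested.

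**Figure D5:**
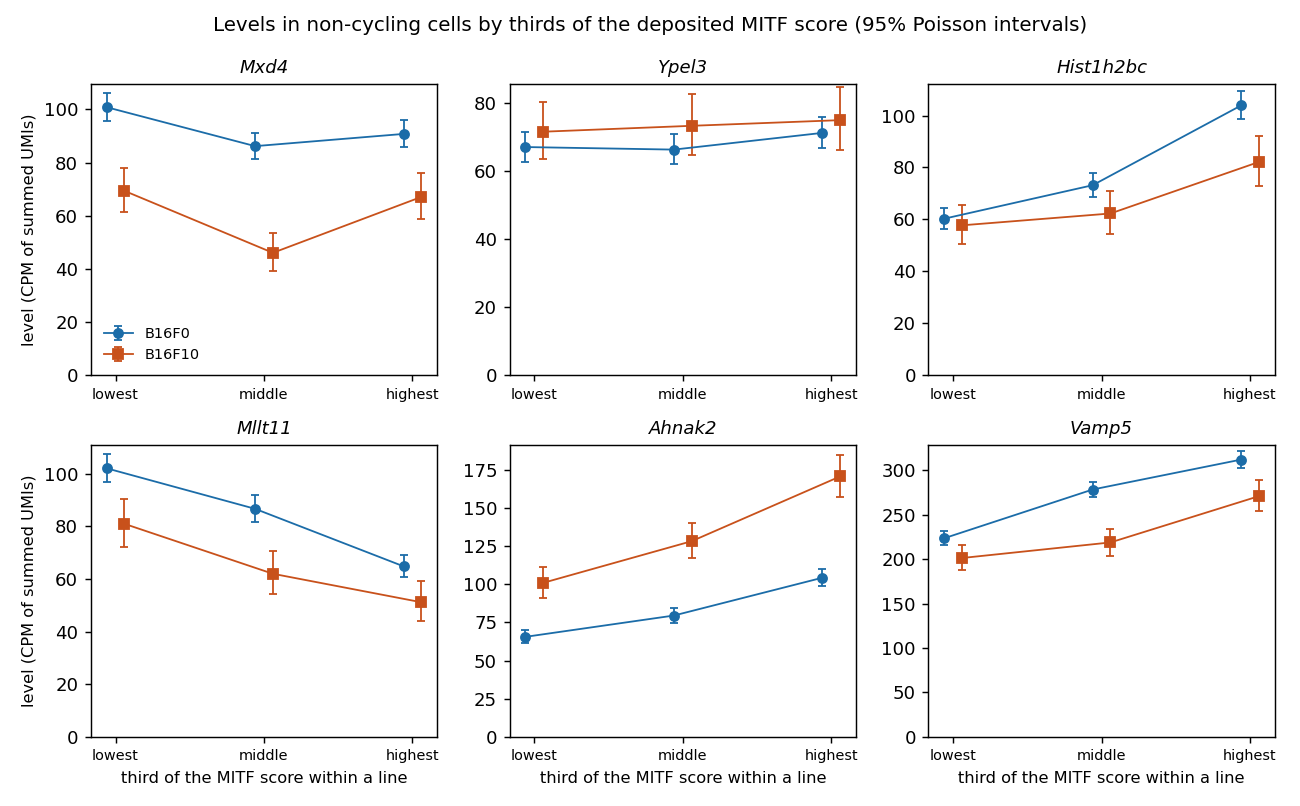
Level in CPM (y axis, from 0) of each gene in non-cycling cells of the lowest, middle and highest tertile of the deposited MITF score (x axis) in B16F0 and B16F10, with 95% Poisson intervals. Ahnak2 climbs from 65.6 to 104 and from 101 to 171 CPM, and Mllt11 descends from 102 to 64.8 and from 81.0 to 51.2 CPM.

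Pseudotime, the deposited position of a cell along a computed trajectory, brought out Mxd4 in B16F0. In tertiles of non-cycling cells from early to late it had 77.3, 131 and 66.5 CPM, with its peak in the middle, and Vamp5 had 228, 325 and 259 CPM with the same shape. Hist1h2bc climbed through 56.2, 82.8 and 100.4 CPM. In B16F10 the Mxd4 levels were 65.3, 65.8 and 50.5 CPM with no middle peak, and Mllt11 climbed through 50.5, 66.5 and 81.1 CPM. State 7 against state 6 of non-cycling B16F0 cells gave Mxd4 64.2 against 119 CPM, a ratio of −0.90 (−1.01 to −0.79), the 1 of 6 genes called lower where 2.38% of 4836 genes were, and none was called higher, where 4.59% were. The 41 non-cycling B16F10 cells of state 1 had 33.7 CPM of Mxd4, 35.9 of Ypel3 and 97.5 of Vamp5, against 64.7, 78.5 and 247 CPM in the 303 of state 7, while Ahnak2 had 129 and 132 CPM. The median G2/M score of these state 1 cells was −0.07 against −0.24 in state 7, and its part in these levels was not tested.

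At 20 CPM or more, most relatives of the 6 genes were not called higher in non-cycling cells. The 6 were picked with this ratio known, so the contrast carries no test. Over all genes tested, 1.03% were higher and 9.35% lower in B16F0, and 3.43% higher and 13.0% lower in B16F10. In the MAX network 10 of 13 genes were in the table, and 4 in B16F0 and 6 in B16F10 reached 20 CPM, with 1 higher and 1 lower in each line. The lower one was Mxd3, a relative of Mxd4 known to be made in S phase. It was at 4.27 against 39.4 CPM in B16F0 and 3.31 against 28.5 CPM in B16F10, log2 ratios of −3.20 and −3.11. In both lines Mxd3 was called higher in cells with only the G2/M score above 0 than in those with only the S score above 0. Max, the shared partner, was at 58.9 against 57.7 CPM and 61.7 against 70.5 CPM. The list's median log2 ratio was 0.12 and 0.10.

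Of the 5 YPEL genes, 2 in B16F0 and 1 in B16F10 reached 20 CPM. None was called higher in B16F0 and Ypel3 was in B16F10, with medians of 0.41 and 1.28. Below 20 CPM, Ypel2 had log2 ratios of 1.36 and 1.42, and Ypel1 −0.54 and −0.03. Ypel2 was at 6.05 against 2.36 CPM in B16F0 and 4.57 against 1.71 CPM in B16F10. Ypel5 was at 20.7 against 17.1 CPM in B16F0 and 16.8 against 9.48 CPM in B16F10. Of the 7 VAMP genes, 5 and 6 reached 20 CPM, with 0 higher in B16F0 and 2 in B16F10, medians of 0.21 and 0.26 and none lower. Those 2 were Vamp5 and Vamp2, a synaptic vesicle SNARE, at 24.3 against 15.1 CPM in B16F10 and 19.6 against 12.6 CPM in B16F0. Vamp8, an endosomal SNARE at 425 against 342 CPM in B16F0 and 334 against 239 CPM in B16F10, stood below 1.5-fold. Of the AHNAK genes and partners, 3 of 5 reached 20 CPM in each line and only Ahnak2 was higher, with medians of 0.44 and 0.22. Below 20 CPM, Ahnak had log2 ratios of 0.66 and 0.86, and Prx −0.41 and −0.47. In the MLLT list only Mllt11 of 3 and of 4 genes was higher, with medians of −0.32 and −0.07. The lists were described at this scaling only, and the largest shift that another scaling gave to the median of all genes was −0.19.

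Beside the counts of the next lists stand the shares over all genes tested, 1.03% higher and 9.35% lower in B16F0. In B16F10 they were 3.43% and 13.0%. Histone genes gave Hist1h2bc its company. Of 51 genes measured, 12 reached 20 CPM in each line, with 3 higher in both and 4 lower in B16F0 and 5 in B16F10, and medians of −0.23 and −0.31. The 3 higher ones were Hist1h2bc, the linker histone gene Hist1h1c at 29.7 against 10.4 CPM and 34.1 against 9.63 CPM, and the H2A gene Hist3h2a at 23.1 against 6.90 CPM and 20.1 against 7.59 CPM. Hist1h1e, another linker histone gene, went the other way, at 11.97 against 27.5 CPM and 7.97 against 28.2 CPM. Of the CDK inhibitor and pocket protein list, 0 of 6 genes were higher and 2 lower in B16F0, and 3 of 6 higher and 2 lower in B16F10, with medians of −0.11 and 0.57. The 3 higher in B16F10 were Cdkn1a, which encodes a CDK inhibitor, and Btg1 and Ccng1, which encode neither kind of protein. The 2 lower in both lines were Cdkn2c and Cdkn2d, inhibitors of the CDK4 and CDK6 kinases. Of the DREAM and MuvB list, 4 of 7 and 6 of 7 were lower, among them Foxm1 at −2.58 and −2.65, with medians of −0.77 and −1.03. Of FOXO target genes, 1 of 7 and 2 of 7 were higher, Bnip3 in both, with medians of 0.14 and 0.47. All 32 and 36 tested genes of the S phase list and all 46 and 47 of the G2 and M phase list were lower. Scores of this kind are usually built from such genes, and none of the 6 genes is on either list.

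Likeness was measured over 10 groups of at least 30 cells, formed by line, cluster and cycling class, as Pearson's r of a gene's log2 level with the mean profile of the 6 genes. The groups share libraries, and the values carry no p. Mitochondrially encoded, ribosomal protein and predicted Gm and Rik genes were left out of the other genes compared. Among 5836 genes the 6 outside the group with the highest r were Nagk at 0.970, Tmem150a at 0.955, Churc1 at 0.948, Pik3r3 at 0.938, Prr13 at 0.930 and Hint2 at 0.918. Their ratios of non-cycling over cycling cells were not all large: Tmem150a was at 62.5 against 23.6 CPM in B16F0 and 39.0 against 10.5 CPM in B16F10, but Nagk at 65.1 against 48.6 and 60.6 against 41.7 CPM. Each of the 6 is itself part of that mean, which raises its r, so these values are not comparable with those of other genes. Among the 6, Mllt11 was the most typical at 0.964, followed by Mxd4 at 0.904, Hist1h2bc at 0.889, Ypel3 at 0.877 and Vamp5 at 0.826. Ahnak2 stood apart at 0.614. Between single genes, r was 0.89 for Mxd4 with Mllt11 and 0.76 for Ahnak2 with Hist1h2bc, but 0.11 for Ahnak2 with Vamp5.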

How the data were processed

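The 6 genes and all gene lists were chosen with earlier results of these data known. The authors deposited raw UMI counts for 14959 genes in 4156 cells, per the file headers, and per-cell classes and scores for S phase, G2/M, MITF and pseudotime; the sources used here do not say how these were made. Libraries were made with the 10x Chromium 3' kit, chemistry v2, per the labels' protocols. Per the submitters' processing notes, the tools and build, named without a role, were Seurat 3.0, Cell Ranger 3.0.0 and mm10. A table of natural log values and second copies of both tables were not used. The libraries held 94268486 (B16F0) and 56748682 (B16F10) UMIs, so a count of 0 allows 0.0318 and 0.0529 CPM (3 counts).

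All deposited cells were kept and assigned to a line by the deposited cell table; 6 barcode sequences occur in both libraries. Summed counts were scaled to CPM, and log2 ratios carry exact conditional binomial 95% intervals, levels exact Poisson and shares exact Clopper-Pearson ones. With 1 library a line there is no test. The interval of a difference of 2 log2 ratios combines their counting errors. For shares, cells were thinned to 23173 UMIs, leaving out 388 B16F0 and 158 B16F10 cells. No doublet caller was run; an alternative left out the deepest 5% of cells of each library. Besides the 6 genes, the text names list members past 1.5-fold the same way in both lines and the 6 genes of most alike profile. Max, Ypel1, Ypel2, Ypel5, Vamp2, Vamp8, Ahnak, Prx and Kdm5b were named as relatives or class markers after their values were seen. Cdkn1a, Btg1 and Ccng1 were named as list members called higher in B16F10 alone, also after their values were seen. Alternatives were other scalings (factors from edgeR and DESeq2), sets of cells, folds and CPM minimums. Ratios and intervals were tested on simulated Poisson counts, the model that the intervals assume, with no spread between cells. Their coverage under the spread of real cells was not tested. In thinned cells of a class the variance over the mean, which is 1 in that model, was higher for each of the 6 genes. It ran from 1.28 for Ypel3 in cycling B16F0 cells to 4.93 for Hist1h2bc in non-cycling B16F0 cells. The intervals are therefore narrower than the spread between cells would give. Versions were R 4.3.3, edgeR 4.0.16, DESeq2 1.42.0, scipy 1.17.1, numpy 2.4.6, pandas 2.3.3, matplotlib 3.10.9 and Python 3.11.15.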

Additional observations from a re-analysis of the deposited data

Results flagged for a closer look

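Ahnak2 stood in opposite order in the 2 lines between cycling cells with only the G2/M score above 0 and cycling cells with only the S score above 0. Its log2 ratio of the first over the second was 0.37 (95% counting interval 0.23 to 0.52) in B16F0, from 56.0 and 43.2 CPM, and −0.44 (−0.59 to −0.30) in B16F10, from 59.7 and 81.1 CPM. The B16F10 ratio minus the B16F0 ratio was −0.82 (−1.02 to −0.61). Neither ratio reached the 1.5-fold size of a call. Under 5 other scalings, chosen after the values were seen, they lay between 0.38 and 0.42 in B16F0 and between −0.43 and −0.36 in B16F10. With 1 library a line the difference was not tested between replicated samples.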

How the results depend on the processing

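No paired analysis was possible because each line is 1 library and no result comes from a test. Of 300 values of single genes under the alternatives for the 6 comparisons by cycling class, line and Kdm5b class, 244 stayed within their main counting interval, 56 moved, and none of the called ones changed sign. All 6 genes were higher in non-cycling cells of both lines under each of 9 alternatives, with B16F0 log2 ratios between 1.37 and 2.03 for Hist1h2bc, 1.04 and 1.295 for Mxd4, 0.45 and 0.60 for Ypel3 and 0.43 and 0.61 for Vamp5. The count of 4 in B16F0 became 2 at 2-fold, 6 with mitochondrial and ribosomal protein genes left out of the total (Ypel3 and Vamp5 added) and 5 with the mean of per-cell CPM (Ypel3 added). Leaving out cells whose higher score was within 0.05 of 0, an alternative chosen after seeing the data, gave 6. Between the lines in non-cycling cells, the count of 2 became 1 with TMM factors, DESeq2 size factors or unscaled UMIs per cell (Mxd4), 1 with that reduced total or with cells of at most 8% mitochondrial UMIs (Ahnak2), and 0 at 2-fold. In cycling cells the count of 3 became 1 at 2-fold and 1 at a minimum of 50 CPM, and 4 with TMM factors, DESeq2 size factors or cells of at most 8% mitochondrial UMIs (Mllt11 added). The count of 0 between Kdm5b classes in B16F0 became 1, Hist1h2bc, with the mean of per-cell CPM and 1 without the deepest 5% of cells. Among all genes, 185 were higher and 699 lower in non-cycling B16F10 cells, 20.9% of calls being higher. With the reduced total this was 292 and 520 (36.0%), with the median of all genes shifted by 0.11, and unscaled it was 89 and 1216 (6.82%), with a shift of −0.19. In B16F0, 52 genes were higher, 28 unscaled and 1550 with no CPM minimum. Between the lines in non-cycling cells, 521 were higher and 373 lower (58.3% higher), against 354 and 582 (37.8%) with TMM factors and 339 and 606 (35.9%) with DESeq2 size factors, shifts of −0.10 and −0.11, and 331 and 623 (34.7%) unscaled, a shift of −0.12. In cycling cells it was 57.4%, and 43.3% and 40.3% with those factors. Between Kdm5b classes in B16F0 it was 62.5% of 48 calls and 34.9%, 36.6%, 52.4%, 75.8% and 11.3% with TMM, DESeq2, the reduced total, the mean of per-cell CPM and no scaling. Depth limits the comparison of Kdm5b classes, which rests on 91 and 77 Kdm5b-high cells, and those of the 59 non-cycling C5 and 41 non-cycling state 1 cells of B16F10.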
